A study of Mus musculus with 4 samples.

Results

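Cell junction and polarity genes were taken by symbol: every array probe annotated to a claudin, a zonula occludens protein (Tjp), occludin, a cingulin, F11r, a classical or related cadherin (Cdh), a catenin (Ctnn), a connexin (Gja to Gjd), a desmosomal protein (desmocollins, desmogleins, desmoplakin, plakophilins, Jup) or a Par3 or Par6 protein. These were 135 probes of 87 genes, among 25697 probes and 16593 genes on the array, and no measured value entered the choice. They were compared between livers of control mice (genotype given only as control) and of mice with a liver-specific ROCK1 KO, that is, a knockout of a kinase that acts on the actomyosin cytoskeleton. Each group had 2 single-colour Illumina bead arrays, labelled with Cy3-streptavidin, and all mice had normal chow for 16 weeks under 14 h of light and 10 h of dark a day. The age and sex of the mice, the strain, the agent and promoter of the deletion and whether each array was a separate animal are not given in the sources used here, so p-values rest on the spread among these arrays alone, and that spread may be technical. The comparison addresses how hepatic expression differs between the genotypes.

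Hepatocytes are polarised epithelial cells in which tight junctions seal the bile canaliculus off from the blood side. Beneath the tight junctions, cadherins tie neighbouring cells together and are linked to actin through catenins, desmosomes anchor keratin filaments, and gap junctions of connexins couple the cytoplasm of neighbours. The Par complex sets the boundary between the canalicular and the other membranes. Actomyosin tension, on which ROCK kinases act, is applied to these adherens junctions.

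Values are log2(intensity + 16) after quantile normalisation, and a difference is KO minus control on that scale. A probe was called at a limma adjusted p (Benjamini-Hochberg over all 25697 probes, two-sided) under 0.05, and it counted as above background over a log2 value of 7.84. Since background was left in, a dim probe understates the change of its transcript. The mode of the unnormalised intensities, where background lies, was 123.7 to 126.8 on the control arrays and 179.4 to 179.7 on the KO arrays, so background and genotype moved together before normalisation. Rock1, the targeted gene, read 8.51 and 8.51 in control and 8.06 and 7.91 in KO (difference -0.53, SE 0.12, limma adjusted p = 0.0181). Its call was kept without KO replicate 1 (adjusted p = 0.0221) and lost without each of the other arrays (highest 0.0995), and its unnormalised intensities overlapped between the groups. A probe outside the deleted part would not show the deletion.

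Few of the junction genes were called, in a share near that of all genes. By limma, 6 of the 135 probes were lower and 2 were higher in KO liver, 5.93% called against 8.02% of all probes (4.32% lower and 3.69% higher). All 8 were among the 41 junction probes above background on at least 2 arrays, or 19.5% of them, where 18.3% of all such probes were called, a description only, since a probe can pass that limit through 1 group. With each gene read by its brightest probe, 4 genes fell (Ctnnb1, Tjp1, Cldn1 and Cdh2) and 2 rose (Ctnnbip1 and Cldn7), while 81 of 87 were not called. That is 6.90% of the genes, against 8.84% of all genes, and the shares lower and higher over all genes were 4.63% and 4.2%. The other called probe was 1 of 3 for Gjb2. The median difference of the 87 genes was 0.01, beside 0.0037 for all genes. Both arrays of one group lay beyond both of the other for 24 genes with KO above and 20 with KO below, or 27.6% and 23.0%, where all genes gave 27.5% and 26%, or 53.5% either way. The junction genes were thus called, and separated by group, about as often as the rest of the array.

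**Figure D1:**
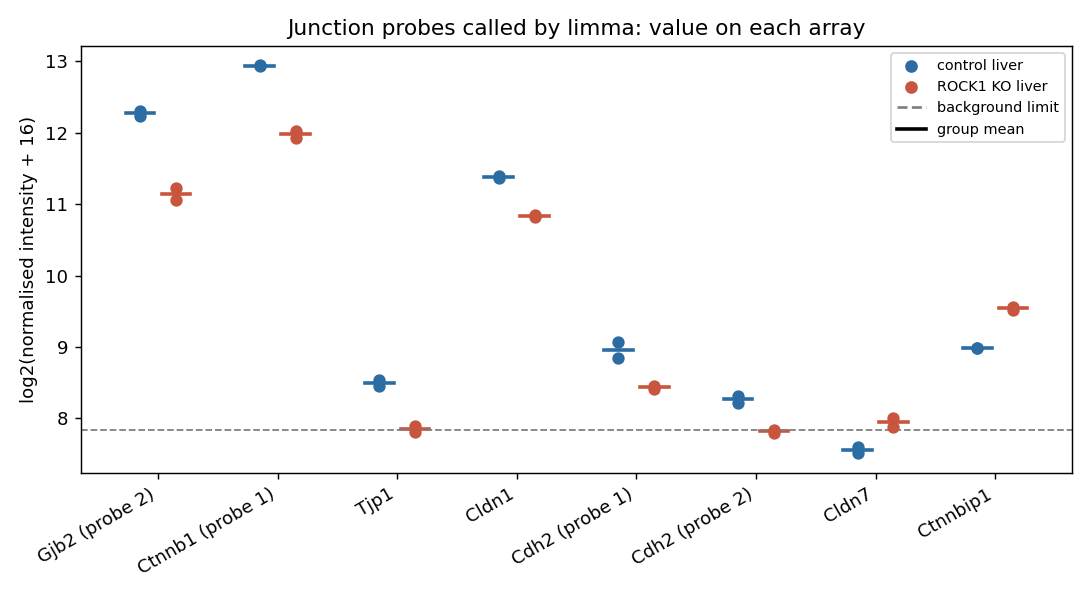
Normalised log2 intensity (vertical axis) of the 8 called junction probes on each array, with blue points for control and red points for ROCK1 KO liver, a bar for each group mean and a dashed line at the background limit of 7.84. No probe's groups overlap, and the KO arrays of Tjp1 and of the dimmer Cdh2 probe lie at the limit.

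Of the 87 genes, 30 had a brightest probe above background on at least 1 array, and 57 on none. Among the 94 probes that were above background on no array, differences ran from -0.26 to 0.26 and none was called. Both counts depend on the probes as well as on the tissue: the single Alb probe, for the main plasma protein of liver, was above background on 1 of 4 arrays. A probe at background is therefore no evidence that its gene is silent.

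The promoters of 4 genes with a lowered probe and of Ctnnbip1, the brighter of the genes that rose, are shown. They were picked after their values were seen (Cdh2 is named only), and not all of their calls held with single arrays left out. Each line is the 250 bases before the RefSeq start in GRCm38.p6, 5′ to 3′ on the gene's strand, with capitals for the GC box GGGCGG (or its complement CCGCCC) and the E-box CACCTG (or CAGGTG). They lie at chr9:120933150-120933399 (plus strand, Ctnnb1, the more upstream of its starts), chr7:65371245-65371494 (minus, Tjp1), chr16:26371840-26372089 (minus, Cldn1), chr14:57104703-57104952 (minus, Gjb2) and chr4:149517991-149518240 (plus, Ctnnbip1, likewise the more upstream).
Ctnnb1: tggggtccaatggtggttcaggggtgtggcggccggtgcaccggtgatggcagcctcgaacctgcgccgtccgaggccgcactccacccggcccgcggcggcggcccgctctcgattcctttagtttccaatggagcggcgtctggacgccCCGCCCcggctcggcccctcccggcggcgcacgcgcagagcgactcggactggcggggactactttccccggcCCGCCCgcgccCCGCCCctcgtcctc
Tjp1: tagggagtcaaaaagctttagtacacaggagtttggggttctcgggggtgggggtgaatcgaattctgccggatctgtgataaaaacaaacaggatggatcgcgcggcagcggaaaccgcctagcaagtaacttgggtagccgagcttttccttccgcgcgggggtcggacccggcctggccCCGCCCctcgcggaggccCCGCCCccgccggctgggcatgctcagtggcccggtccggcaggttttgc
Cldn1: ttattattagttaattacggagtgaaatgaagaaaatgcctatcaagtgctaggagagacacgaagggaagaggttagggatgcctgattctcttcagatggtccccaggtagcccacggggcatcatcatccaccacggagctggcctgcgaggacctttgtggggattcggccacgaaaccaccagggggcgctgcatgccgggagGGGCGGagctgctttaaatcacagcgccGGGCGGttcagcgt
Gjb2: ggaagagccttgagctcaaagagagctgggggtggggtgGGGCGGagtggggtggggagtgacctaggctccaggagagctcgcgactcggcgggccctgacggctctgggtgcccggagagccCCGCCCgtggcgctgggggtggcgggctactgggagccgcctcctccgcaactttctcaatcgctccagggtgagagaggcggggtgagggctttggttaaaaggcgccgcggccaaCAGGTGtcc
Ctnnbip1: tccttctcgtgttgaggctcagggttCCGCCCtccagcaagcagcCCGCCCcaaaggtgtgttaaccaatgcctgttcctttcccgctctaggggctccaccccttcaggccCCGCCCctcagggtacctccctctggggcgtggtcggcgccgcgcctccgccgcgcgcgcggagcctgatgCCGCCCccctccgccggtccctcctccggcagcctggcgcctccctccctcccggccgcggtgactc
All of them held a GC box, which 32.7% of the 32851 mouse promoter windows of this length hold. The copies began at -99, -26 and -15 from the start in Ctnnb1, at -68 and -50 in Tjp1, at -42 and -14 in Cldn1, at -211 and -126 in Gjb2, and at -224, -205, -138 and -67 in Ctnnbip1. Cldn7, the other gene that rose, is not shown and held no GC box in its more upstream window, but held 1 in the other. Of the 55 member genes with a window, 4 of 5 genes called by their brightest probe and 24 of 50 others held a GC box in their most upstream one. The E-box, present in 17.2% of all windows, was found in Gjb2 at -9 and in none of the other 4. Searched on both strands, the TEAD motif GGAATG (12.6% of windows) and the CArG box (1.47%) were in none of the 5 windows. The TCF motif CTTTGA (13.8%), searched likewise, was in that of Gjb2 alone. The less upstream window of Ctnnbip1, not shown, held no GC box but held a TEAD motif at -123. TATA and CCAAT boxes were also searched for and were dropped after their matches had been seen. Base composition was 55.6% G and C in Cldn1 and 63.2% to 74.8% in the rest, against a median of 52.4% over all windows. The median of the 50 members not called was also above that, at 59.6%.

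Claudins form the paracellular seal and its pores. Of 23 claudin genes measured, 1 fell, 1 rose and 21 were not called, and 8 were above background on at least 1 array. Cldn1, a sealing claudin of hepatocytes and bile ducts, read 11.37 and 11.40 in control and 10.82 and 10.85 in KO. It fell by 0.54 on the log2 scale (SE 0.15, 1.46-fold lower, limma adjusted p = 0.0488), with tight and separate groups. The unnormalised Cldn1 intensities, 2684 and 1894 for control and 2046 and 2010.1 for KO liver, overlapped. The call was lost when any 1 array was left out (adjusted p of 0.103 to 0.199) and with an offset of 50 (0.0521) or cyclic loess (0.0507), while the difference stayed between -0.57 and -0.51.

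Cldn7, a claudin of ductal and other epithelia, read 7.51 and 7.60 in control, at background, and 7.88 and 8.01 in KO. It was at least 1.07-fold higher (fitted difference 0.39, SE 0.10, limma adjusted p = 0.0397). The call held without KO replicate 1 (adjusted p = 0.0476) and was lost without each of the other arrays (highest 0.202), and also with no intensity trend (0.0529). The remaining claudins above background split by direction without a call. Cldn14, a cation-barrier claudin, read 8.24 and 8.27 against 7.95 and 7.86 (difference -0.35, 95% interval -0.59 to -0.11, adjusted p = 0.0744), and was called when probes above background on all 4 arrays alone were tested (0.0424). Cldn12, reported in calcium transport, read 11.26 and 11.12 against 10.90 and 10.86 (-0.31, interval -0.65 to 0.03). In both, the KO arrays lay below the control arrays.

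Cldn2, the cation-pore claudin, lay the other way, at 11.33 and 11.43 in control and 11.66 and 11.67 in KO (difference 0.29, interval -0.04 to 0.61). Cldn3, a sealing claudin of hepatocytes, read 10.97 and 11.01 against 11.10 and 11.34 (0.23, interval -0.12 to 0.58). Cldn9 read 8.06 and 8.41 against 8.44 and 8.64 (0.30, interval -0.01 to 0.62). In these 3 genes both KO arrays were above both control arrays, though none passed the test. Cldn15, a pore claudin of the gut, overlapped between groups with a difference of 0.01. The 15 other claudins were at background on all arrays.

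The scaffold and transmembrane partners of the claudins were 5 genes, all above background, of which 1 fell and 4 were not called. Tjp1, the ZO-1 scaffold that links claudins and occludin to actin, read 8.46 and 8.54 in control and 7.81 and 7.89 in KO. It fell by 0.65 (SE 0.11, 1.57-fold lower, limma adjusted p = 0.00534), and the groups also stayed apart before normalisation, at 327.2 and 269.0 against 242.7 and 259.6. Of its 2 KO arrays 1 was above background. The call was lost without control replicate 2 (adjusted p = 0.0522) and held without any other single array (highest 0.0312). After normexp background correction and quantile normalisation the difference was -1.06.

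Tjp3, the ZO-3 scaffold, had 2 probes that both read higher in KO without a call. The brighter gave 8.62 and 8.31 against 8.77 and 8.87 (difference 0.35, adjusted p = 0.162) and the dimmer 8.52 and 8.11 against 8.82 and 8.79 (0.50, adjusted p = 0.0653). The dimmer was called without control replicate 1 (0.68, adjusted p = 0.0444) and with 75th percentile scaling after normexp (0.71, 0.0392). The difference between the Tjp1 and Tjp3 responses was not tested. F11r, the junctional adhesion molecule JAM-A, read 9.54 and 9.69 against 9.38 and 9.17 (-0.34, interval -0.67 to -0.01, adjusted p = 0.214). Ocln, occludin, overlapped at 8.04 and 8.14 against 7.999 and 8.06 (-0.06, interval -0.30 to 0.18). Cgnl1, the cingulin paralogue paracingulin, overlapped too (-0.04, interval -0.29 to 0.21). No probe was annotated to Cgn.

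**Figure D2:**
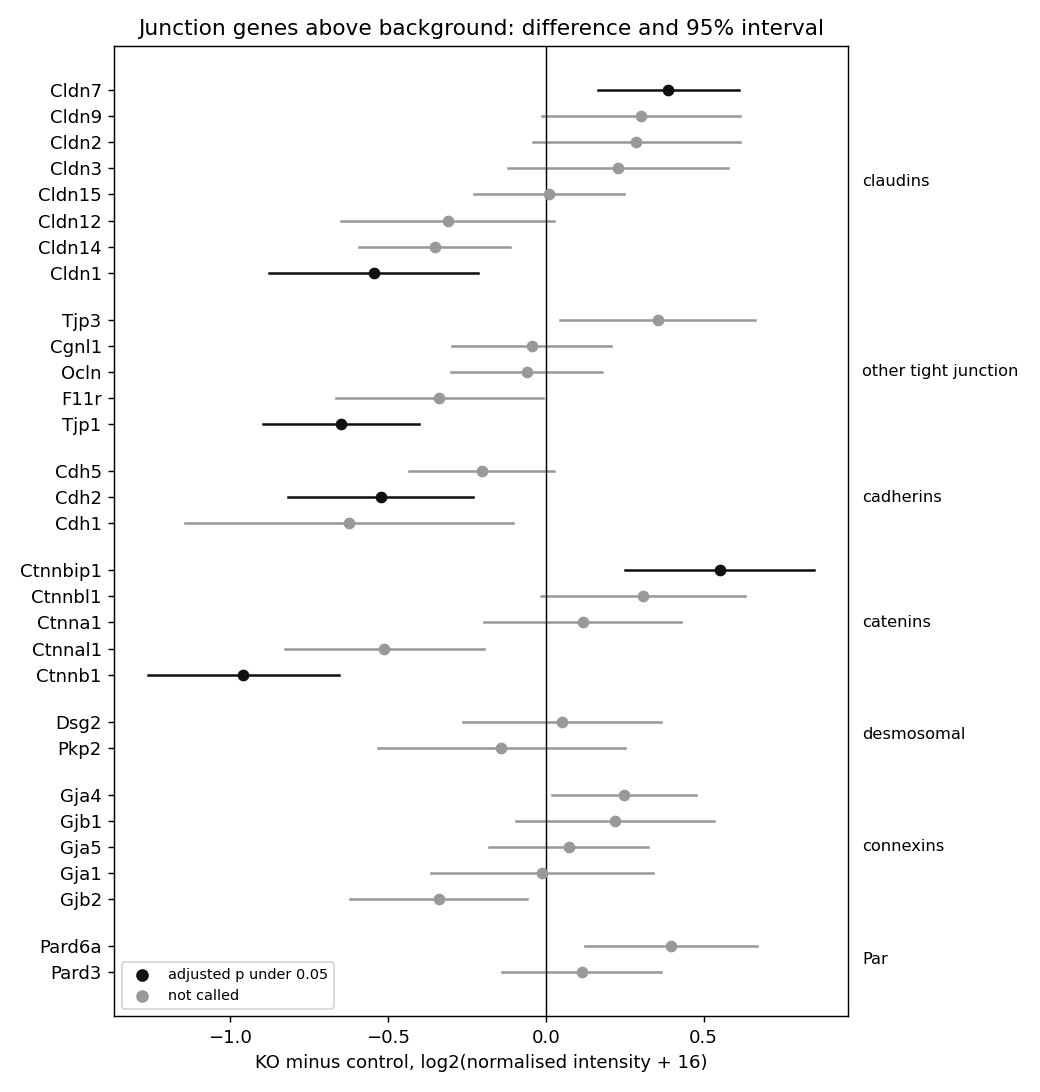
Difference (KO minus control, log2 scale, horizontal axis) with its limma 95% interval for the brightest probe of the 30 junction genes above background on at least 1 array, grouped by family. Black marks the 6 called genes, of which Ctnnb1 lies farthest from 0 (-0.96), and grey marks the genes that were not called.

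Among 19 cadherin genes, 1 fell, 0 rose and 18 were not called, and 3 were above background on at least 1 array. Cdh2, the N-cadherin that hepatocytes carry beside E-cadherin, was read above background by 2 of its 4 probes. The brighter (ILMN_2764136) read 8.84 and 9.07 in control and 8.46 and 8.41 in KO, a fall of 0.52 (SE 0.13, 1.44-fold lower, limma adjusted p = 0.0350). The dimmer (ILMN_1247861) read 8.22 and 8.31 against 7.84 and 7.80, with no KO array above background, and was at least 1.34-fold lower (adjusted p = 0.0268). Both showed separate groups after normalisation (the brighter also before it), and both calls were lost when any 1 array was left out (highest adjusted p of 0.221 and 0.154). That of the dimmer was also lost when arrays were scaled to the 75th percentile, without or with normexp (0.153 and 0.0612). Averaged with 2 further probes at background, whose differences were -0.10 and 0.04, the gene was not called (-0.26, adjusted p = 0.120).

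Cdh1, the E-cadherin of periportal hepatocytes and bile ducts, varied most within groups. Control arrays read 8.96 and 9.72 and KO arrays 8.99 and 8.44, which overlap, and its difference of -0.62 (SE 0.24, interval -1.14 to -0.10) was not called (adjusted p = 0.144). Leaving out single arrays moved it from -0.99 without control replicate 1 to -0.25 without control replicate 2 (adjusted p = 0.625), and it was called without KO replicate 1 (-0.89, 0.0479). Scaling to the 75th percentile gave a call, both without normexp (-0.62, adjusted p = 0.00528) and with it (-0.79, 0.0304). Cdh5, the VE-cadherin of endothelium, read 7.89 and 7.95 against 7.64 and 7.79, with no KO array above background (fitted difference -0.20, interval -0.43 to 0.03, adjusted p = 0.289). The other 16 cadherins were at background, with differences from -0.26 to 0.21.

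The catenin symbols covered 9 genes, of which 1 fell, 1 rose and 7 were not called. Ctnnb1 encodes beta-catenin, which holds classical cadherins at the junction and also acts with TCF factors in the nucleus to drive pericentral liver genes. Its brightest probe (ILMN_2994460) read 12.95 and 12.93 in control and 12.03 and 11.93 in KO. That was a fall of 0.96 (SE 0.14, 1.94-fold lower, limma adjusted p = 0.00185), with separate groups before normalisation too (8151 and 5810.5 against 4839.8 and 4197). The call held without any 1 array (adjusted p of 0.00289 to 0.0267, differences from -1.002 to -0.92). Its other probe (ILMN_2696575) read 10.51 and 10.63 against 10.02 and 10.20, also lower in both KO arrays but smaller (-0.47, interval -0.81 to -0.12) and not called (adjusted p = 0.0996), though it was called with no intensity trend (0.0357). The mean of both probes was called (-0.71, adjusted p = 0.0185).

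Ctnnbip1, which encodes ICAT, a small protein that keeps beta-catenin from TCF factors, rose. It read 8.99 and 8.99 in control and 9.56 and 9.52 in KO, a difference of 0.55 (SE 0.14, 1.47-fold higher, limma adjusted p = 0.0307). Its groups did not overlap after normalisation. The unnormalised values were also higher in KO, but so was the background of the KO arrays, so that separation carries no weight. The call was lost when any 1 array was left out (differences from 0.53 to 0.57). Ctnnal1, an alpha-catenin-like gene, read 8.86 and 8.69 against 8.43 and 8.09 and was not called (-0.51, adjusted p = 0.0523). It was called without KO replicate 1 (adjusted p = 0.0203), and with scaling to the 75th percentile, that scaling after normexp, cyclic loess or a robust variance model (0.0303 to 0.0496).

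Ctnna1, the alpha-catenin that bridges beta-catenin to actin, overlapped between groups at 12.58 and 12.38 in control and 12.62 and 12.57 in KO (0.12, interval -0.19 to 0.43). Ctnnbl1, whose product is a nuclear splicing factor partner despite its name, read 9.71 and 9.79 against 10.05 and 10.07 (0.31, adjusted p = 0.249). Ctnnd1, the delta-catenin bound to cadherin tails, was at background on every array (-0.08).

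The 13 desmosomal genes held no call, and 2 were above background. Pkp2, a plakophilin of simple epithelia, had 3 probes, whose differences were -0.14, -0.18 and -0.09. On the brightest it read 10.46 and 10.12 in control and 10.32 and 9.99 in KO, which overlapped. Dsg2, the desmoglein of simple epithelia, also had 3 probes, with differences of 0.05, 0.29 and 0.25, none called (lowest adjusted p = 0.174). The last of these had no control array above background. Its brightest overlapped at 8.80 and 8.99 against 9.06 and 8.84. Jup, the plakoglobin shared by desmosomes and adherens junctions, was at background (0.01), and no probe was annotated to Dsp or Pkp4. The remaining desmocollin, desmoglein and plakophilin genes, mostly of stratified epithelia, were at background.

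Of 14 connexin genes, none was called by its brightest probe, and 5 were above background. Gjb2 and Gjb1 encode the connexins of hepatocyte gap junctions. The probes of Gjb2 disagreed. The brightest (ILMN_2999627) read 13.10 and 13.10 in control and 12.74 and 12.78 in KO (-0.34, SE 0.13, limma adjusted p = 0.142). The next (ILMN_1227148) read 12.24 and 12.31 against 11.05 and 11.23, a fall of 1.13 (SE 0.15, 2.19-fold lower, adjusted p = 0.00133), and this call held without any 1 array (highest adjusted p = 0.0236). The dimmest (ILMN_2604713) read 8.72 and 9.34 against 9.52 and 9.46, in the opposite direction and not called (0.46, adjusted p = 0.184). All 3 were assigned to the same transcript record, so the size and direction for Gjb2 rest on which probe is read. Of the 8 junction genes with more than 1 probe above background on at least 2 arrays, Gjb2 was the 1 whose probes differed from the brightest by 0.5 or more (by up to 0.79), followed by Ctnnb1 (0.49).

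**Figure D3:**
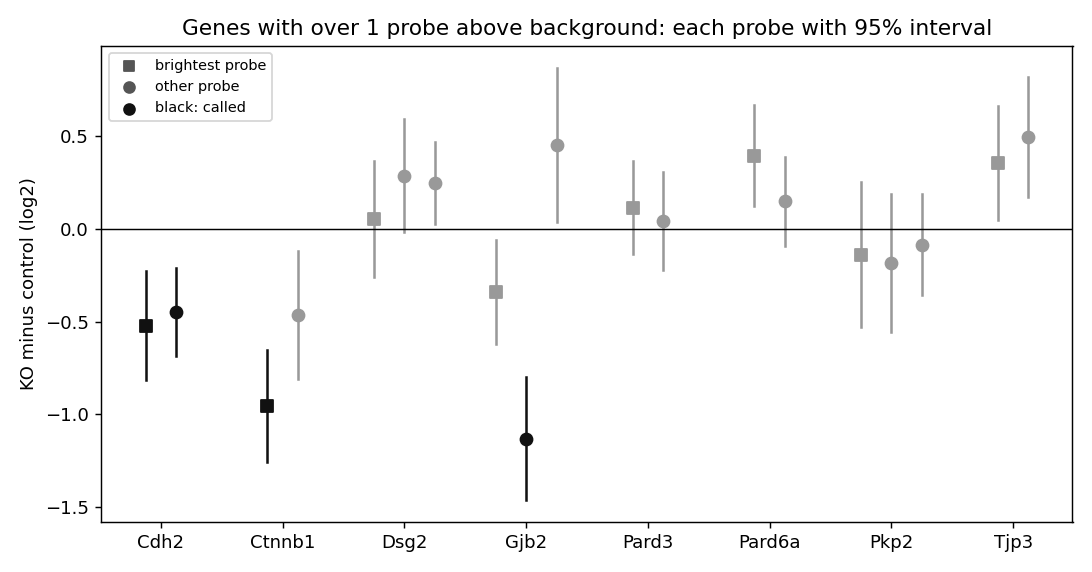
Difference (KO minus control, log2 scale, vertical axis) with its limma 95% interval for each probe above background on at least 2 arrays, for the 8 junction genes with over 1 such probe. Squares are brightest probes, circles the others and black marks called probes, and the 3 Gjb2 probes run from -1.13 to 0.46 while those of Pkp2 run from -0.18 to -0.09.

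Gjb1, the major hepatocyte connexin, read 9.18 and 9.20 in control and 9.32 and 9.50 in KO (0.22, interval -0.09 to 0.53, adjusted p = 0.413), with both KO arrays above the control arrays. Gja1, the connexin of many non-parenchymal and stressed cells, overlapped at 9.26 and 9.17 against 9.41 and 9.003 (-0.01, interval -0.36 to 0.34). Gja4 and Gja5, connexins of arterial endothelium, had 2 arrays each above background. Gja4 read 7.83 and 7.79 against 8.01 and 8.10, with no control array above background (fitted difference 0.25, adjusted p = 0.190). Gja5 overlapped (0.07). The other 9 connexins were at background, with differences from -0.11 to 0.16.

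The Par3 and Par6 scaffolds, which position atypical protein kinase C at the apical membrane, had 4 genes and no call. Pard6a read 8.51 and 8.51 in control and 8.92 and 8.89 in KO on its brightest probe (0.40, interval 0.12 to 0.67, adjusted p = 0.0785), with tight and separate groups, and was called with no intensity trend (0.0379). Its other probe gave 0.15 (adjusted p = 0.475). Pard3 read 8.15 and 8.23 against 8.35 and 8.25 (0.11, interval -0.14 to 0.36). Pard3b and Pard6g were at background, and no probe was annotated to Pard6b.

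**Figure D4:**
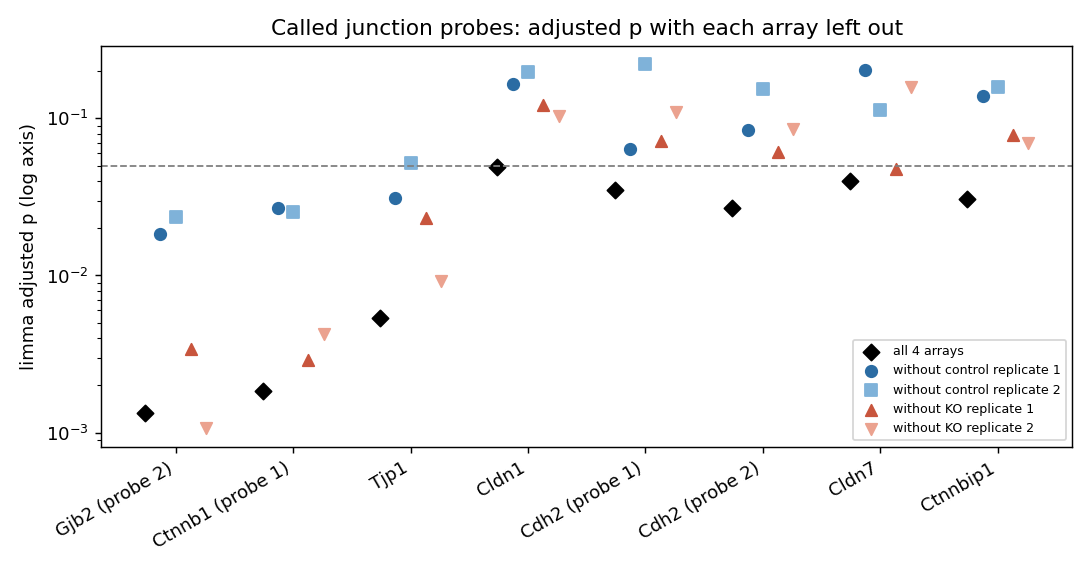
Limma adjusted p (vertical log axis) of the 8 called junction probes with all 4 arrays and with each array left out in turn, with a dashed line at 0.05. The called Gjb2 probe and the brightest Ctnnb1 probe stay under the line in every fit, Tjp1 crosses it without control replicate 2, Cldn7 stays under it in 1 fit, and Cldn1, Ctnnbip1 and both Cdh2 probes lie above it in all 4 fits with 3 arrays.

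Other genes of these structures came from lists of junction, polarity and beta-catenin genes outside the symbols above. Of 31 other tight and adherens junction genes, 2 fell, 1 rose and 28 were not called, with a median difference of 0.0004, beside 8.84% of all genes called. Magi1, a membrane scaffold at tight junctions, fell by 0.63 (8.42 and 8.49 against 7.85 and 7.80, limma adjusted p = 0.00558), a call lost without control replicate 2 (0.0526). Vcl, vinculin, which is recruited to adherens junctions under tension, fell by 0.61 (11.12 and 10.97 against 10.55 and 10.32, adjusted p = 0.0420), a call kept in 1 of 4 fits with 1 array left out. Nectin2, an adherens junction adhesion molecule, rose by 0.55 on its brightest probe (limma adjusted p = 0.0464). Another probe was also called, with a rise of 0.999 (adjusted p = 0.00151), and the remaining one was not (0.08, adjusted p = 0.796). The call of the brightest probe was lost when any 1 array was left out (differences from 0.40 to 0.70). It was also lost with normexp before quantile normalisation or with cyclic loess (highest limma adjusted p = 0.0670). After normexp and quantile normalisation 0 of these genes rose and 2 fell, and with the authors' values 2 rose and 2 fell.

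Of 36 polarity genes of the Par, Crumbs and Scribble groups and their partners, 3 fell, 2 rose and 31 were not called (median -0.03). That is 13.9% called, against 8.84% of all genes. All 5 calls were among the 21 polarity genes above background on at least 2 arrays, where 18.3% of all such probes were called. Lin7c, a scaffold of the Crumbs complex, read 8.35 and 8.45 in control and 7.57 and 7.52 in KO and was at least 1.47-fold lower (limma adjusted p = 0.000970), a call kept without any 1 array. Slc9a3r1, the apical scaffold NHERF1 that binds ezrin, rose by 0.88 (11.68 and 11.72 against 12.54 and 12.61, adjusted p = 0.00356), also kept without any 1 array. Myo5b, a motor that carries recycling vesicles to the canaliculus, was at least 1.25-fold lower, and Rdx, radixin, which tethers canalicular transporters to actin, at least 1.10-fold lower (adjusted p of 0.0166 and 0.0370). Scrib, a basolateral polarity scaffold, rose by 0.64 (adjusted p = 0.0244). When 1 array was left out, the calls of Myo5b, Rdx and Scrib held in 2, 1 and 1 of 4 fits, and that of Rdx was also lost with 75th percentile scaling, with or without normexp, and with no intensity trend (highest adjusted p = 0.245). Cdc42, the GTPase that activates the Par complex, read 9.75 and 9.34 against 9.57 and 9.71 and was not called (0.10).

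Around beta-catenin, 38 genes of its destruction complex, nuclear partners and liver targets were measured. Of these, 22 were above background on at least 2 arrays and held all 8 calls, where 18.3% of all such probes were called. Of the 38 genes, 6 rose, 2 fell and 30 were not called (median 0.07), or 21.1% called against 8.84% of all genes. Without control replicate 1 these counts were 2 and 2, without control replicate 2 they were 2 and 1, and without KO replicate 2 they were 4 and 2. Bcl9l, a coactivator that binds beta-catenin, rose by 1.16 (9.34 and 9.38 against 10.36 and 10.68, limma adjusted p = 0.00164), and Btrc, a ubiquitin ligase subunit that marks beta-catenin for destruction, rose by 0.66 (adjusted p = 0.0133). The targets moved in both directions. Glul, glutamine synthetase, fell by 1.14 (9.34 and 8.92 against 7.95 and 8.04, adjusted p = 0.00129), and Ccnd1, cyclin D1, fell by 1.01 (adjusted p = 0.00845), with -0.85 and -0.31 on its other probes. Oat, ornithine aminotransferase, rose by 0.78, Gulo, of ascorbate synthesis, by 0.65, Axin2, a feedback inhibitor, by 0.57 and Cyp1a2, a cytochrome P450, by 0.46 (adjusted p of 0.00200, 0.00954, 0.0362 and 0.0448). The other Cyp1a2 probe read -0.02.

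Among these 8 genes, the calls of Glul, Bcl9l and Oat were kept without any 1 array, that of Ccnd1 was lost without control replicate 2 (adjusted p = 0.0956), and those of Gulo, Btrc, Axin2 and Cyp1a2 held in 2, 2, 1 and 1 of 4 fits. The call of Cyp1a2 was also lost with normexp, 75th percentile scaling or cyclic loess (highest adjusted p = 0.242). With 75th percentile scaling, with or without normexp, and with cyclic loess the list gave 5 rises and 3 falls. Beta-catenin message and the messages of its targets therefore did not move in 1 direction in these arrays.

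Genes of the liver zones were set beside Cdh1 and Ctnnb1. Of 14 pericentral genes, 10 of which are also in the beta-catenin list, 5 rose and 1 fell, with 8 not called (median 0.13), or 42.9% called against 8.84% of all genes and 18.3% of probes above background on at least 2 arrays, as all 14 were above background. Without control replicate 1 the counts were 2 and 2, without control replicate 2 they were 2 and 1, and without KO replicate 2 they were 3 and 1. The rises were Oat, Gulo, Axin2, Cyp1a2 and Cyp2a5 (1.13, limma adjusted p = 0.00173, in a family with close paralogues), and Glul fell. These counts were 5 and 3 with 75th percentile scaling, 4 and 3 after normexp and that scaling, and 4 and 2 with cyclic loess. Of 9 periportal genes, 2 rose and 3 fell, with 4 not called (median -0.29). The called share was 55.6%, beside the same 8.84% and 18.3%, and all 9 were above background. Ass1 and Etnppl rose by 1.29 and 1.26, while Hsd17b6, Pck1 and Apof fell by 1.97, 1.14 and 0.89 (adjusted p from 0.0003 to 0.00170). All 5 calls were kept without any 1 array.

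Markers of the cells of the liver were measured with the same test. Called shares were 16.7% of hepatocyte, 12.5% of endothelial and 15.4% of Kupffer and leukocyte markers. They were 28.6% of bile duct, 8.33% of stellate and fibroblast and 12.5% of mesothelial and erythroid markers, against 8.84% of all genes. In bulk tissue, fewer cells of a type and less RNA per cell cannot be told apart. Of 12 hepatocyte markers, 10 were above background, Ttr, Apoa1, Ahsg and Hpx on all 4 arrays among them, with summed normalised intensities of 301701 to 320593 in control and 296442 to 299852 in KO. Cebpa rose by 1.02 and Serpina1a, which has close paralogues, fell by 1.82. Of 16 endothelial markers, 12 were above background, and 1 of these fell, Clec4g (-0.94, limma adjusted p = 0.00323). The summed intensities of the endothelial markers were 15323 to 17246 in control and 11153 to 11887 in KO. For 9 of the 16 (56.2%) both KO arrays lay below both control arrays, and for 1 (6.25%) above them. All genes gave 26% below and 27.5% above. The median difference of the 16 was -0.14, with the markers at background included. Sox17 also passed the test with KO below control (adjusted p = 0.0389), but it was at background on every array, as were Kdr, Erg and Lyve1, so no size is given. The endothelial markers' part in the values of Cdh5, Gja4, Gja5 and Tjp1 was not tested.

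Of 13 Kupffer and leukocyte markers, 6 were above background and 2 fell, Adgre1 (-0.84) and Clec4f (-0.63). Another probe of each was not called, at -0.30 for Adgre1 (limma adjusted p = 0.116) and -0.12 for Clec4f (0.530). The summed intensities of these markers were 4878 to 5550 in control and 4334 to 4395 in KO. For 5 of the 13 (38.5%) both KO arrays lay below both control arrays, and for 0 above them (median difference -0.105). Among 7 bile duct markers, Krt19, Krt7, Cftr, Tspan8 and Bicc1 were at background on all arrays. Sox9 rose by 0.61 and Aqp1, which endothelium also expresses, fell by 0.54, with -0.01 and 0.19 on its other probes. The sums were 6761 to 6865 in control and 5037 to 5314 in KO. Only Sox9 and Aqp1 were above background, so the lower sums in KO rest on the brightest Aqp1 probe. Its other probes did not share that fall. Of 12 stellate and fibroblast markers 1 fell (Col3a1, at least 1.19-fold lower), with sums of 13038 to 15297 and 11911 to 12422. Of 8 mesothelial and erythroid markers 1 fell, Hbb-bt (at least 2.70-fold lower), with sums of 31072 to 41352 and 27721 to 48201, and Msln, Upk1b and Gpm6a were at background. Both KO arrays lay below both control arrays for 6 stellate and fibroblast markers and above them for 2. The same counts were 5 and 3 for hepatocyte, 2 and 2 for bile duct and 2 and 1 for mesothelial and erythroid markers. When 1 array was left out, the calls of Clec4g, Cebpa, Serpina1a and Hbb-bt were kept in 4 of 4 fits, those of Adgre1 and Col3a1 in 2, those of Clec4f, Sox17 and Sox9 in 1 and that of Aqp1 in 0. A robust variance model lost the call of Hbb-bt (adjusted p = 0.298), and normexp, 75th percentile scaling or no intensity trend lost that of Sox17 (highest 0.382). Whether these cell types had a part in the junction genes' values was not tested.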

How the data were processed

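Total RNA of mouse liver, column-purified and checked for quality per the labels' protocols, was read on 4 Illumina bead arrays. The authors' deposited intensities are 1 value per probe on a linear scale, without detection p-values per the file headers, and lay at 79.2 or more on every array, so no background had been subtracted as far as the values show. The authors also deposited log2 values for these arrays, which served as an alternative. Their normalisation, the scanner software, the slides and the scan dates are not given here in any source.

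Intensities were quantile normalised, an offset of 16 was added and log2 taken. Tests used the functions lmFit and eBayes (with a trend on intensity) of limma 3.58.1, under R 4.3.3, over all 25697 probes and 4 arrays, without a block, and the code was tested on simulated data, whose noise model was revised after earlier versions did not meet the recovery set for it. Intervals are 95% intervals of that fit, and SE is its moderated standard error. The number of arrays limits the precision. The background limit lies 3 SD above the mode of the normalised values. Where no array of a group was above it, a change is a bound, with each dim array set to the higher of its own value and the lowest value over the limit. Symbols came from the platform annotation: 23978 probes had 1 symbol, 0 several and 1719 none. Of these 23962 matched a RefSeq table of GRCm38.p6 by gene identifier. Promoter sequences are RefSeq's for GRCm38.p6 and matched 55 of the 87 genes. A gene was read by its brightest probe over the 4 arrays.

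Named genes were Rock1, members with a called probe, 30 fixed members (24 had a probe), the 2 brightest and up to 2 uncalled members of lowest p in each family, and the called genes of each of 11 lists. A few further genes (Alb, Cdc42, Cldn15, Gja5, Pard3b, Pard6g and marker genes at background) were added after their values were seen. Members, lists and tests were chosen with earlier results of these data known. Figures were drawn with matplotlib 3.10.9.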

Additional observations from a re-analysis of the deposited data

How the results depend on the processing

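Leaving out 1 array gave 800 to 1679 called probes in all (2060 with 4 arrays), 2 to 6 junction probes (8), 1 to 5 junction genes by their brightest probe (6) and 6 to 13 genes of the junction, polarity and beta-catenin lists together (16). By list the ranges were 0 to 2 for other junction genes (3), 2 to 5 for polarity genes (5), 3 to 8 for beta-catenin genes (8), 5 to 5 for periportal genes (5) and 3 to 7 for pericentral genes (6). The arrays did not count alike: without control replicate 1, control replicate 2, KO replicate 1 and KO replicate 2 in turn, 821, 800, 1679 and 1425 probes and 2, 1, 5 and 2 junction genes were called. At an adjusted p under 0.01 the counts were 795 probes, 3 junction probes, 2 junction genes, 8 genes of the 3 lists together and 1, 2 and 5 genes of each. With probes above background on all 4 arrays alone, 15 polarity genes were tested and 2 were called. The replicate numbers carry no stated pairing, and deviations of same-numbered arrays correlated at -0.06 over all probes. With the replicate number as a block 11 junction probes were called (8 lower, 3 higher) and 2920 probes in all, with calls gained for Cdh1, Ctnnal1 and the dimmer Tjp3 probe (adjusted p of 0.0148, 0.0124 and 0.0179). Counts of these results under the other offsets, normalisations, variance models, the authors' values and the filter of 2 arrays were within 1.5 times the main count.

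Among the named genes 16 values of uncalled probes turned sign. With 75th percentile scaling Cgnl1 read 0.027 (0.0096 with normexp first) and Ctnnd1 0.0053. Leaving out 1 array gave -0.15 to 0.058 for Cgnl1, -0.22 to 0.059 for Ctnnd1, -0.21 to 0.20 for Gja1, -0.31 to 0.028 and -0.38 to 0.017 for 2 Pkp2 probes, -0.055 to 0.16 for the brightest Dsg2 probe, -0.066 to 0.092 for Jup and -0.11 to 0.20 for the dimmer Pard3 probe. A slide block was not run, since the files give no slide. The median difference of all probes was 0.0011, and it was 0.08 with 75th percentile scaling and 0.11 with normexp before it, where 1254 probes were higher and 1116 lower (949 and 1111 otherwise).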
